A study of Mus musculus with 18 samples.

Results

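Amino acid transporters of the SLC1, SLC6, SLC7, SLC36, SLC38, and SLC43 families were described in mouse tissue labelled as thyroid after exposure to 211At, an alpha-emitting radiohalogen. The members were all genes whose probe symbol began with Slc1a, Slc6a, Slc7a, Slc36a, Slc38a, or Slc43a, except Slc7a5 and Slc7a11, which that rule leaves out. This gave 54 of 16593 named genes, measured by 78 probes. A gene with several probes (16 members) was represented by the probe with the highest mean over all arrays. The animals were 6-month-old females of the BALB/c nude strain, which lacks a functional thymus. Tissue was taken 24 h after an intravenous injection of 211At with absorbed doses of 0.05, 0.5, 1.4, 11.2, or 32.4 Gy, or after treatment with an empty syringe (0 Gy). RNA was extracted from 1 pool of thyroids per group and hybridised to 3 MouseRef-8 BeadChip arrays (Illumina), which gave 18 arrays. The p-values therefore measured the spread between arrays of 1 pool and not the spread between mice.

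Amino acids cross the plasma membrane mainly through carriers. SLC1 holds the sodium-coupled glutamate transporters and the alanine-serine-cysteine exchangers, and SLC6 the sodium- and chloride-coupled carriers of glycine, proline, taurine, creatine, GABA, and the monoamines. SLC7 holds the cationic carriers and the light chains that pair with a heavy chain such as Slc3a2, SLC36 the proton-coupled carriers, SLC38 the sodium-coupled neutral carriers of systems A and N, and SLC43 facilitative carriers such as Slc43a2. In mice, Slc7a10 is known as a surface marker of white adipocytes and Slc36a2 as one of brown and beige adipocytes.

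The tissue was checked against marker lists before the members were read. Of 9 measured genes of thyroid follicular cells, 8 (Tg, Slc5a5, Slc26a4, Pax8, Nkx2-1, Foxe1, Duox2, and Iyd) were not detected on all 3 arrays of any group, and the 1 detected was Tshr. The defining markers of the labelled tissue, Tg among them, were thus not detected. Markers of neighbouring tissues were bright and differed between the pools. The summed intensity of 9 submandibular gland genes was 11510 to 12130 at 0 Gy and, with increasing dose, 185400 to 185900, 182600 to 191900, 58140 to 58410, 165000 to 166700, and 151600 to 154500. For 6 parotid gland genes it was between 1816 and 27460 at the 5 doses, against 105700 to 118000 at 0 Gy. For 10 genes of skeletal muscle it was between 7413 and 34900 at the 5 doses, against 2778 to 2860 at 0 Gy. Of 7 brown fat and 7 white adipocyte genes, 6 each were detected (not Dio2 and Retn), and their sums are given beside the members. In pooled tissue, fewer cells of a type and less RNA per cell cannot be told apart. The part of tissue content in the differences of the members was not tested.

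A gene was counted as detected when its detection p-value was under 0.01 on all 3 arrays of a group. Of the 54 members, 17 (31.5%) were detected in at least 1 group, against 46.9% of all named genes, and 8 (14.8%) in every group, against 35.6%. The 8 were Slc1a3, Slc6a6, Slc6a8, Slc6a9, Slc7a10, Slc36a2, Slc38a2, and Slc38a7. By family, 4 of 7 SLC1, 3 of 18 SLC6, 5 of 14 SLC7, 1 of 3 SLC36, 4 of 10 SLC38, and 0 of 2 SLC43 members were detected. One of the 5 in SLC7 was Slc7a6os, which neighbours Slc7a6 and is not a carrier. The number detected was 13 at 0 Gy and 13, 15, 12, 15, and 16 with increasing dose. Of all named genes, 40.9% were detected at 0 Gy and 40.5%, 43.0%, 41.5%, 40.4%, and 41.8% with increasing dose. A further 11 members were detected on some arrays but on all 3 of no group (Slc1a1, Slc1a2, Slc1a7, Slc6a7, Slc6a12, Slc6a19, Slc7a2, Slc7a7, Slc36a1, Slc38a1, and Slc43a2), and 26 on no array by the probe used. The last set held the monoamine transporters Slc6a2, Slc6a3, and Slc6a4, the GABA transporters Slc6a11 and Slc6a13, the intestinal and brain carriers Slc6a14, Slc6a15, and Slc6a17, the proline transporters Slc6a20a and Slc6a20b, Slc6a21, and the glycine transporter Slc6a5. It also held the cationic carriers Slc7a1, Slc7a3, and Slc7a14, the light chains Slc7a9, Slc7a12, Slc7a13, and Slc7a15, Slc36a3, the system N carriers Slc38a3 and Slc38a5, the system A carrier Slc38a4, Slc38a8, Slc38a11, and Slc43a3. By the probe used, none of these 37 members differed from 0 Gy by more than 0.21 on the log2 scale at any dose. A second probe of Slc7a3 was detected on 1 array at 0 Gy and differed by −0.24 at 1.4 Gy (adjusted p = 0.0040, limma), under 1.5-fold.

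Differences from 0 Gy were tested with limma on log2 intensities after joint quantile normalization of the 18 arrays. A gene was called at a Benjamini-Hochberg adjusted p under 0.01 together with a change of at least 1.5-fold. All 5 comparisons shared the 3 arrays of 0 Gy. At 0.05 Gy, 3 of 54 members were called (Slc7a10 and Slc38a2 higher, Slc36a2 lower), against 5.77% of all genes (3.18% higher and 2.59% lower). At 0.5 Gy, 4 were called (Slc7a10, Slc38a2, and Slc6a9 higher, Slc36a2 lower), against 9.09% (4.53% higher and 4.56% lower). At 1.4 Gy, 3 were called (Slc7a10 and Slc6a6 higher, Slc7a4 lower), against 2.84% (1.36% higher and 1.49% lower). No member was called at 11.2 Gy, against 3.41% of all genes, or at 32.4 Gy, against 2.51%. At an unadjusted p under 0.05, 13 members at 11.2 Gy and 8 at 32.4 Gy passed limma. The share of all genes at this unadjusted threshold was not counted, so that nothing about the members is read from these numbers. The share of members called was 5.56%, 7.41%, 5.56%, 0%, and 0% at the 5 doses from low to high. With the authors' values it was 7.41% at both 0.05 and 0.5 Gy, against 18.9% and 19.1% of all genes. In all, 6 members were called at least once, against 11.3% of all genes. The median log2 difference over the 54 members was 0.01, −0.02, −0.02, −0.03, and −0.01 from the lowest to the highest dose.

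**Figure D1:**
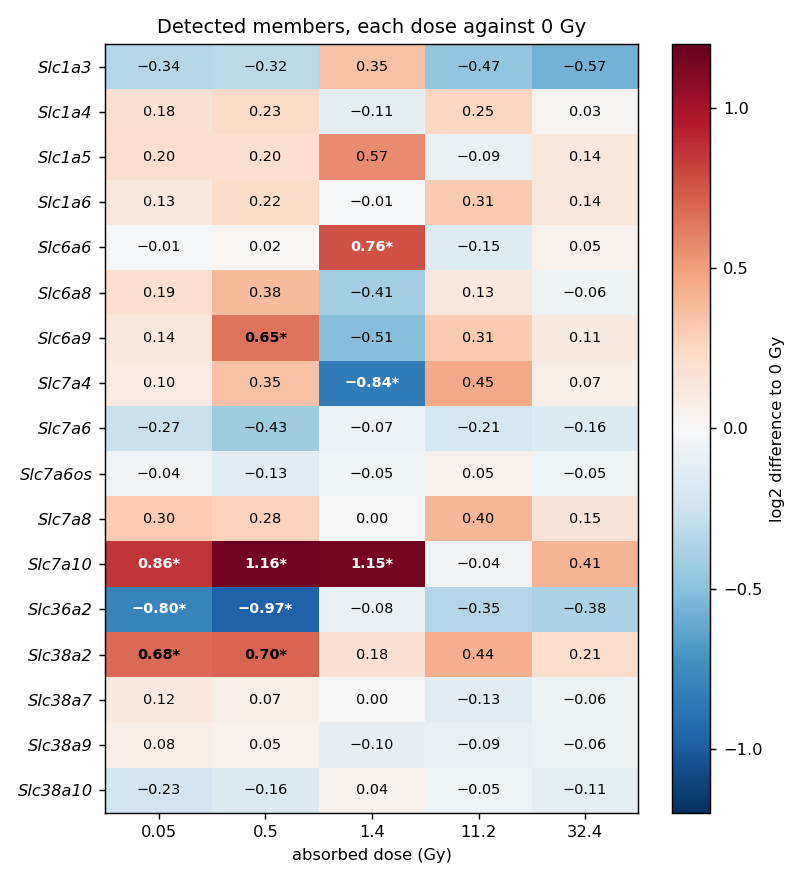
Log2 difference from 0 Gy (colour and printed value) of the 17 detected members at the 5 absorbed doses, with calls marked by an asterisk and bold type. The 10 calls lie at 0.05, 0.5, and 1.4 Gy, and the differences reach from −0.97 for Slc36a2 to 1.16 for Slc7a10, both at 0.5 Gy.

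The sequences upstream of Slc7a10 and Slc38a2 are shown because both genes were called higher at 0.05 and 0.5 Gy. RefSeq promoters (build GRCm38.p6) were at hand for 39 of the 54 members, and the 250 bases before the annotated start are printed on the strand of the gene, 5′ to 3′. Capitals mark the letters GGGCGG, the core of the GC box, read on either strand.
Slc7a10, chr7:35186135-35186384, plus strand: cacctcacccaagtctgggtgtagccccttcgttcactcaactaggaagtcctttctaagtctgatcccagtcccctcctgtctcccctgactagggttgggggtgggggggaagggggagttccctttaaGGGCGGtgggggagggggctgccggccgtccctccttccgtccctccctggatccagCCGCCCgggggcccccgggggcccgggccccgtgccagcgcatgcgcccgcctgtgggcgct
Slc38a2, chr15:96699729-96699978, minus strand: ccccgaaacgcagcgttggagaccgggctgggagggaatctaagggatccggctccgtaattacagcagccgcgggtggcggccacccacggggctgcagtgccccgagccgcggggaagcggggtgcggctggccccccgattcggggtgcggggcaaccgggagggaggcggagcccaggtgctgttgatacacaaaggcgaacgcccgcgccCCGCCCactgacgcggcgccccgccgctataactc
The window of Slc7a10 held 2 such matches and that of Slc38a2 held 1, and 32.7% of all 32851 promoter windows of the same length held at least 1. Neither window held TGATGNAA, the core of the amino acid response element, on either strand, and 3.45% of all windows did. Only bases before the start were searched, so that such a site elsewhere in either gene would be missed. The TATA box letters TATAAA were in neither window and in 12.4% of all. The same held for CCAAT, present in 33.8% of all. The GC content was 69.6% for Slc7a10 and 72.0% for Slc38a2.

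Slc7a10, the alanine-serine-cysteine exchanger Asc-1, was higher than at 0 Gy at 3 doses. Its intensity on the 3 arrays was 365, 399, and 429.7 at 0.05 Gy, where 0 Gy had 226, 215, and 213. It was 484, 492, and 482 at 0.5 Gy and 452, 516, and 483 at 1.4 Gy. It was 198, 206, and 236 at 11.2 Gy and 296, 296, and 276 at 32.4 Gy. Every array at 0.05, 0.5, 1.4, and 32.4 Gy lay above every array at 0 Gy, and the arrays at 11.2 Gy overlapped them. The log2 difference was 0.86 at 0.05 Gy (SE 0.07, adjusted p = 6.7e-11, limma), 1.16 at 0.5 Gy (adjusted p = 6.6e-14), and 1.15 at 1.4 Gy (adjusted p = 2.8e-13). At 32.4 Gy it was 0.41 (adjusted p = 8.4e-05), under 1.5-fold, and at 11.2 Gy −0.04. With the values as the authors normalized them, the difference at 0.05 Gy was 0.34 and no longer called, and that at 0.5 Gy was 0.63.

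Slc36a2, the proton-coupled carrier PAT2 of glycine, alanine, and proline, fell at the 2 lowest doses. Its intensity was 189, 152, and 183 at 0.05 Gy and 166, 155, and 145 at 0.5 Gy, against 298, 268, and 347 at 0 Gy. The arrays of 1.4 Gy gave 295, 291, and 274, those of 11.2 Gy 265, 222, and 226, and those of 32.4 Gy 257, 226, and 216. The arrays at 0.05, 0.5, 11.2, and 32.4 Gy lay below all 3 of 0 Gy, and those at 1.4 Gy overlapped them. It fell by 0.80 at 0.05 Gy (SE 0.09, adjusted p = 5.5e-08, limma) and by 0.97 at 0.5 Gy (adjusted p = 8.7e-10) on the log2 scale. With the authors' values the log2 differences were −1.38 and −1.55. At 11.2 and 32.4 Gy the differences of −0.35 and −0.38 had adjusted p = 0.0054 and 0.0038 (limma) and were under 1.5-fold.

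Fat marker lists were read beside these carriers. The summed intensity of 7 brown fat genes was 37810 to 39500 at 0 Gy and, with increasing dose, 24960 to 25900, 12640 to 14380, 41760 to 44790, 31430 to 34490, and 36510 to 38950. Of these genes, 4 were called lower at 0.05 Gy (Cidea, Elovl3, Cox7a1, and Slc27a2), 5 at 0.5 Gy (the same 4 and Ucp1), and 0 at the other doses. The lowest sums and the lowest values of Slc36a2 lay at the same 2 doses. At 11.2 Gy the brown fat sums were also below those of 0 Gy, and at 32.4 Gy they overlapped them. Slc36a2 was below 0 Gy on all arrays at both of these doses. The sum of 4 erythrocyte genes was also low at the 2 lowest doses, at 9127 to 10090 at 0.05 Gy and 5579 to 5946 at 0.5 Gy, against 30100 to 34250 at 0 Gy. It was between 24620 and 34090 at the other doses. The summed intensity of 7 white adipocyte genes was 25110 to 31040 at 0 Gy and, with increasing dose, 32290 to 38590, 31290 to 36740, 60600 to 61070, 28610 to 29990, and 31080 to 33570. At 1.4 Gy, 4 of the 7 were called higher (Adipoq, Lep, Car3, and Lpl). At 0.05 Gy none of the 7 was called, and at 0.5 Gy Car3 was called higher and Plin1 lower. At 11.2 Gy Lep was called lower, and at 32.4 Gy none was called. The white adipocyte sums of all arrays at 0.05, 0.5, 1.4, and 32.4 Gy lay above those of 0 Gy, and those at 11.2 Gy overlapped them. At 32.4 Gy the lowest sum was 31080, against a highest of 31040 at 0 Gy. The median log2 difference over the 7 genes was 0.06, 0.07, 0.77, −0.19, and −0.08 with increasing dose, so that the sums do not stand for each gene. The part of fat or blood content in the differences of Slc7a10 and Slc36a2 was not tested.

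**Figure D2:**
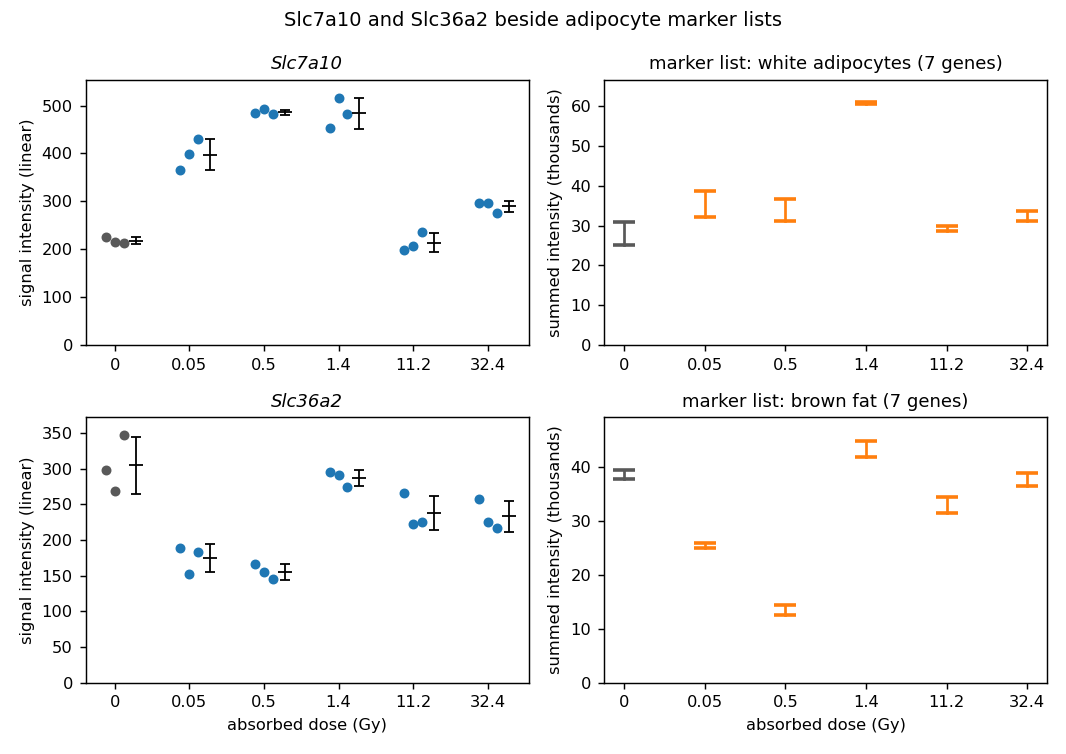
Left, linear intensity of Slc7a10 and Slc36a2 on each array (points) with mean and SD (bars, n = 3 arrays of 1 pool) against absorbed dose. Right, lowest and highest summed intensity over the 3 arrays of 7 white adipocyte and 7 brown fat genes. The brown fat sum was lowest at 0.5 Gy, as was Slc36a2, and the white adipocyte sum was highest at 1.4 Gy.

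Slc38a2, the system A carrier SNAT2 of small neutral amino acids, was called higher at the 2 lowest doses. Its intensity was 784, 703, and 842 at 0.05 Gy and 794, 743, and 828 at 0.5 Gy, against 475, 443, and 539 at 0 Gy. The arrays of 1.4 Gy gave 584, 538, and 522, those of 11.2 Gy 699, 595, and 676, and those of 32.4 Gy 596, 504, and 581. The arrays at 0.05, 0.5, and 11.2 Gy lay above all 3 of 0 Gy. The log2 differences were 0.68 and 0.70 at 0.05 and 0.5 Gy (SE 0.08, adjusted p = 1.6e-07 and 5.3e-08, limma). They were 0.18, 0.44, and 0.21 at 1.4, 11.2, and 32.4 Gy, and that at 11.2 Gy (adjusted p = 0.00020, limma) was under 1.5-fold. A second detected probe gave 0.63 (called) and 0.57 (under 1.5-fold) at the 2 lowest doses and −0.31 at 1.4 Gy, and a probe detected on no array gave −0.01 at both of the lowest doses. The calls rested on the normalization: with the authors' values the differences were 0.05 and 0.08.

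Of the SLC6 carriers, the taurine transporter Slc6a6 was called higher at 1.4 Gy alone. Its intensity was 3302, 3121, and 2743 at 1.4 Gy, against 1712, 1700, and 2014 at 0 Gy. On the arrays of the other 4 doses it lay between 1563 and 1969, and each of these doses overlapped 0 Gy. The log2 difference at 1.4 Gy was 0.76 (SE 0.07, adjusted p = 7.4e-09, limma), and the other 4 were between −0.15 and 0.05. The glycine transporter Slc6a9 was called higher at 0.5 Gy, with 359.6, 337, and 342 against 217, 226, and 218 at 0 Gy. The arrays of 0.05 Gy gave 229, 233, and 267 and those of 1.4 Gy 151, 171, and 143. Those of 11.2 Gy gave 279, 268, and 274 and those of 32.4 Gy 244, 243, and 227. All arrays at 1.4 Gy lay below those of 0 Gy, and all arrays of the other 4 doses lay above them. The log2 difference was 0.65 at 0.5 Gy (SE 0.07, adjusted p = 6.4e-09, limma) and −0.51 at 1.4 Gy (adjusted p = 1.4e-06, under 1.5-fold). With the authors' values it was 0.13 at 0.5 Gy and not called, and −0.62 at 1.4 Gy and called. The creatine transporter Slc6a8 was called at no dose, with log2 differences of 0.19, 0.38, −0.41, 0.13, and −0.06 from the lowest to the highest dose.

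Slc7a4, a member of the cationic amino acid transporter branch, was called lower at 1.4 Gy. Its intensity was 113, 119, and 107 at 1.4 Gy, where 2 of 3 arrays detected it, against 216, 196, and 196 at 0 Gy. The arrays of 0.05 Gy gave 219, 230.5, and 203 and those of 0.5 Gy 283, 246, and 245. Those of 11.2 Gy gave 294, 265, and 271 and those of 32.4 Gy 219, 206, and 212. The arrays at 0.5 and 11.2 Gy lay above those of 0 Gy and the arrays at 1.4 Gy below them. It fell by 0.84 on the log2 scale at 1.4 Gy (SE 0.07, adjusted p = 1.7e-10, limma), and the log2 difference was −1.85 with neqc, a background correction. The differences of 0.35 at 0.5 Gy and 0.45 at 11.2 Gy (adjusted p = 0.00019 and 1.3e-05, limma) were under 1.5-fold.

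**Figure D3:**
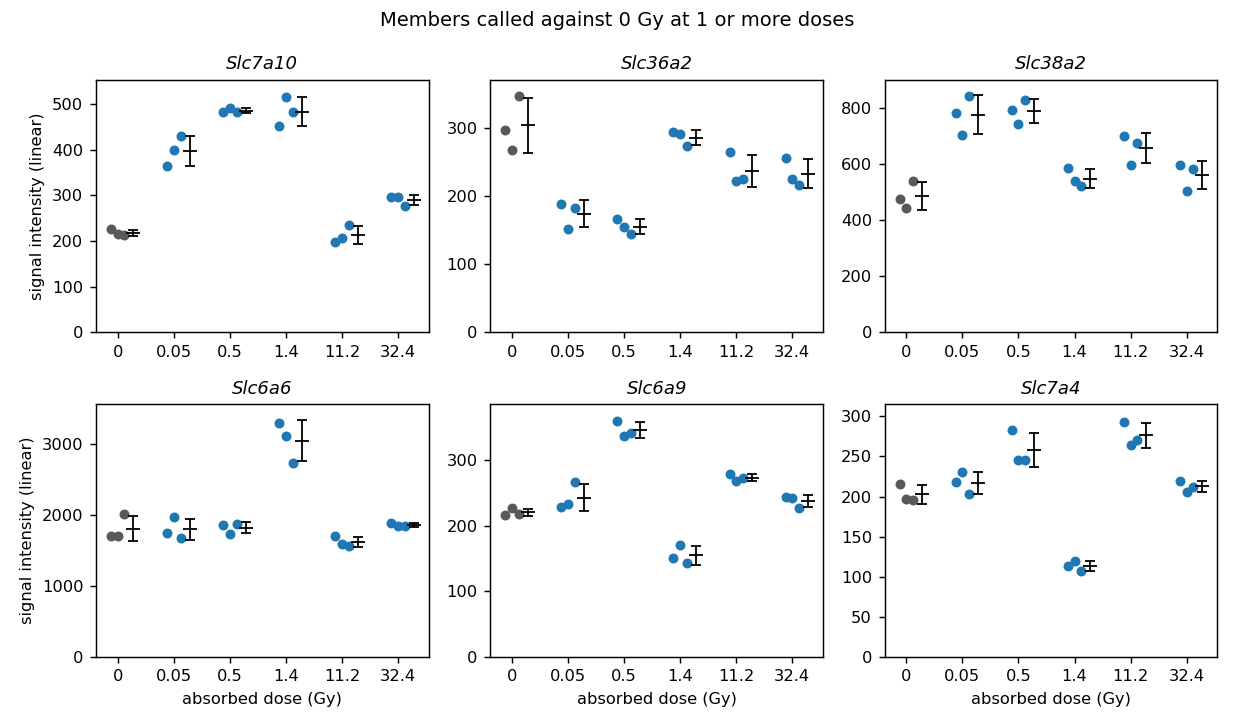
Linear intensity of the 6 members called against 0 Gy at 1 or more absorbed doses, for each array (points) with mean and SD (bars, n = 3 arrays of 1 pool). Slc6a6 was highest and Slc6a9 and Slc7a4 were lowest at 1.4 Gy, whereas Slc36a2 was lowest at 0.05 and 0.5 Gy.

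Among the detected members that were not called against 0 Gy, the glutamate transporter Slc1a3 (GLAST) had an intensity of 2058, 2100.0, and 2112 at 1.4 Gy, against 1617, 1465, and 1864 at 0 Gy. The arrays of 0.05 Gy gave 1311, 1234, and 1341 and those of 0.5 Gy 1573, 1002, and 1443. Those of 11.2 Gy gave 1162, 1233, and 1161 and those of 32.4 Gy 1141, 1072, and 1114. The log2 differences were −0.34, −0.32, 0.35, −0.47, and −0.57 from the lowest to the highest dose (SE 0.10), of which those at 11.2 and 32.4 Gy had adjusted p = 0.0011 and 0.00018 (limma). With the authors' values they were −0.85 and −0.83 at 0.05 and 0.5 Gy, both called. The glutamine exchanger Slc1a5 (ASCT2) differed by 0.57 at 1.4 Gy (1.48-fold, adjusted p = 6.3e-07, limma), just under the fold limit, and its second probe by 0.64, which was called. The first probe was also called with the authors' values (0.81), with neqc (1.43), without array 1 of 1.4 Gy (0.63), and without array 2 of 0 Gy (0.62). The alanine-serine-cysteine exchanger Slc1a4 lay between −0.11 and 0.25. The light chain Slc7a6 was 0.43 lower on the log2 scale at 0.5 Gy than at 0 Gy (adjusted p = 2.0e-06, limma) and was detected on no array at 0.5 Gy. It was called there with the authors' values (−0.83) and with neqc (−1.16). The light chain Slc7a8 lay between 0.00 and 0.40, and the glutamate transporter Slc1a6 between −0.01 and 0.31. The SLC38 members Slc38a7, Slc38a9, and Slc38a10 lay between −0.23 and 0.12.

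The 5 doses were also compared with each other, which leaves out the 0 Gy pool. With limma's F test, 12 of 54 members (22.2%) differed among the doses, against 28.6% of all genes. They were Slc1a3, Slc1a4, Slc1a5, Slc6a6, Slc6a8, Slc6a9, Slc7a4, Slc7a6, Slc7a8, Slc7a10, Slc36a2, and Slc38a2. Set against the mean of the other 4 doses, 1.4 Gy called 4 members, against 6.87% of all genes (2.98% higher and 3.89% lower). Slc6a6 and Slc1a3 were higher by 0.78 and 0.77 on the log2 scale (adjusted p = 8.6e-12 and 6.3e-09, limma), and Slc6a9 and Slc7a4 were lower, at −0.82 and −1.08 (adjusted p = 4.0e-13 and 9.7e-16, limma). Set against 0.05 and 0.5 Gy, the 2 highest doses called 1 member, against 1.9% of all genes (0.796% lower). This was Slc7a10, which was lower at 11.2 and 32.4 Gy by a log2 difference of −0.82 (adjusted p = 2.4e-13, limma). Slc36a2 was higher there by 0.52 (adjusted p = 3.4e-07, limma), under 1.5-fold. With the authors' values this comparison called Slc36a2 higher and did not call Slc7a10. The submandibular, parotid, muscle, fat, and erythrocyte sums above differed among the same doses. The sum of 7 endothelial genes was 1422 to 1514 at 0.5 Gy, against 2282 to 2442 at 0 Gy, and 5 of them were called lower. The sum of 5 macrophage genes was 1355 to 1412 at 0.05 Gy and 3077 to 3147 at 1.4 Gy, against 2394 to 2479 at 0 Gy. The part of these markers in the differences of the members was not tested.

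Other amino acid carriers outside these families were read from a list of 24 genes, of which 19 were measured and 9 detected. Of the 19, 2 were called against 0 Gy at least once, where 11.3% of all genes were. Slc25a12, a mitochondrial aspartate-glutamate carrier, differed by 0.76, 1.00, −0.09, 0.69, and 0.72 on the log2 scale from the lowest to the highest dose and was called at all but 1.4 Gy. With the authors' values its difference at 0.05 Gy was 0.43 and not called. Slc7a5, the large neutral amino acid light chain, had an intensity of 127, 122, and 120.5 at 1.4 Gy, against 563, 512, and 554 at 0 Gy. It fell by 2.14 at 1.4 Gy (adjusted p = 3.8e-20, limma) and by 0.62 at 32.4 Gy (adjusted p = 3.9e-08). At 0.05 and 0.5 Gy its differences of −0.46 and 0.40 (adjusted p = 3.1e-06 and 2.1e-05, limma) were under 1.5-fold. With the authors' values they were −1.07, which was called, and −0.23, which was not. The heavy chain Slc3a2, the partner of Slc7a10 and Slc7a5, was called at no dose, with log2 differences between 0.02 and 0.22. Its probe was dim, at 97.6 to 134.1 over all arrays, and was detected on 1 array at 0 Gy. At 0.5 Gy its difference was 0.63 with neqc and 0.0 with the authors' values, neither called. The cystine light chain Slc7a11 was detected on no array.

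**Figure D4:**
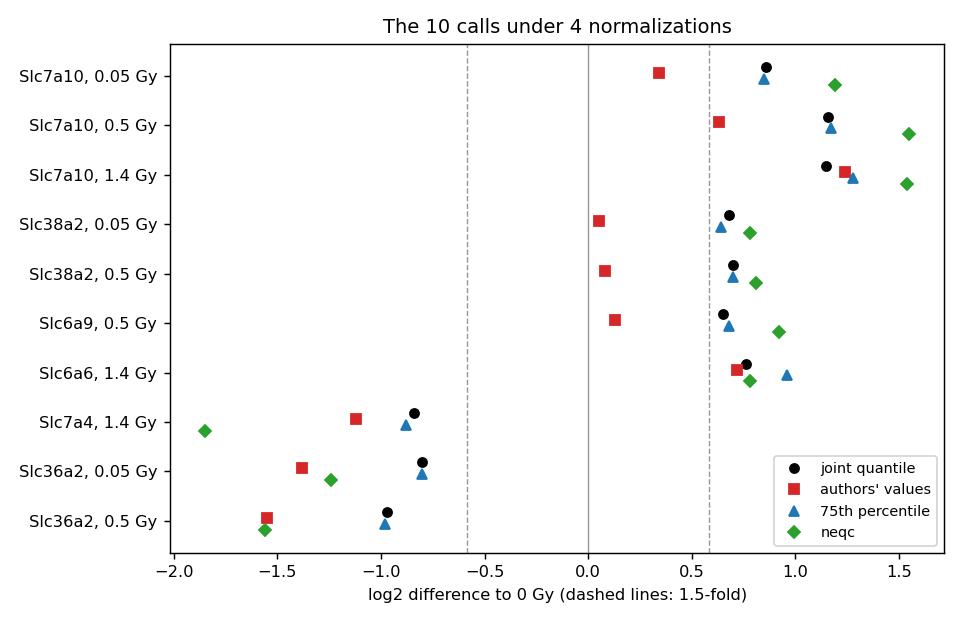
Log2 difference from 0 Gy of the 10 calls (rows) under joint quantile normalization, the authors' values, scaling to the 75th percentile, and background correction with neqc, with dashed lines at 1.5-fold. With the authors' values, Slc38a2 (0.05 and 0.08), Slc6a9 (0.13), and Slc7a10 at 0.05 Gy (0.34) lay inside the dashed lines, whereas all 10 lay outside them under the other normalizations.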

How the data were processed

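Tissue from each group was pooled by the authors, and RNA was run in triplicate on MouseRef-8 BeadChips. The deposited values were linear signal intensity per probe, before and after quantile normalization by the authors, each with a deposited detection p-value. Whether background was subtracted was not stated. The authors' normalized values of 0.05 and 0.5 Gy followed 1 distribution and those of the other 12 arrays another (75th percentile 176 and 242), and the median of all probes at these doses was −0.19 on the log2 scale against 0 Gy. The non-normalized intensities of all 18 arrays were therefore quantile-normalized together here (median −0.01 at these doses) and tested in limma 3.58.1 under R 4.3.3, over 25697 probes, with the authors' values as an alternative. Each array detected 9737 to 10995 probes, and the small number of arrays limits precision. The lowest non-normalized intensity was 62.4, so that background remains in the values and fold changes of dim probes are understated. Of the probes, 23978 had 1 symbol, 1719 none, and 0 several, and 815 control probes were not used. Genes with full values were the members called against 0 Gy, and Slc1a3, chosen after its values were seen. The members and lists were chosen with earlier results of these data known. Whether the 0.05 and 0.5 Gy arrays were also run apart is not given in the sources used here, and such a batch cannot be told apart from dose. Lists, shares, and plots were made in Python 3.11.15 (matplotlib 3.10.9).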

Additional observations from a re-analysis of the deposited data

Results flagged for a closer look

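When 1.4 Gy was set against the other 4 doses (limma, all probes), 4 members (7.41%) were called, against 6.87% of all genes. In each of the 4, the difference from 0 Gy at 1.4 Gy and the mean difference at the other 4 doses had opposite signs. How many of all genes had opposite signs was not counted. The 4 are thus given for passing this test, and Slc6a8 had opposite signs too, with a contrast of −0.57 (adjusted p = 4.2e-09, limma), under 1.5-fold. For Slc1a3 the difference was 0.35 at 1.4 Gy and −0.42 on average at the other doses, a contrast of 0.77 (adjusted p = 6.3e-09). For Slc6a6 it was 0.76 and −0.02, the latter near 0 with the arrays of each dose overlapping 0 Gy, a contrast of 0.78 (adjusted p = 8.6e-12, limma). For Slc6a9 it was −0.51 and 0.30, a contrast of −0.82 (adjusted p = 4.0e-13). For Slc7a4 it was −0.84 and 0.24, a contrast of −1.08 (adjusted p = 9.7e-16). All 4 were called in this contrast under each of 23 alternatives (3 normalizations, the filter on detected probes, the replicate block, and 18 fits with 1 array left out).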

How the results depend on the processing

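The authors' normalization called 4 members at 0.05 Gy (Slc1a3, Slc7a6, Slc36a2, and Slc38a10, all lower), against 2 higher and 1 lower with the joint normalization. It called 5 members at 1.4 Gy, against 3.55% of all genes, and 7 between 1.4 Gy and the other 4 doses, and its F test passed 20 members. Of all genes called at 0.05 Gy it set 6.68% higher, against 55.1% jointly, and at 0.5 Gy 9.6%, against 49.9%. It called 5 other carriers. Scaling to the 75th percentile called 1 member at 11.2 Gy and 1 at 32.4 Gy (Slc1a3, lower, at both), against 4.29% and 2.5% of all genes, and passed 28 in the F test. It set 61.0% of genes called at 1.4 Gy higher, against 47.7% jointly, and 40.6% at 11.2 Gy, against 67.8%. With neqc (offset 16), the numbers of members called at 1.4, 11.2, and 32.4 Gy were 6, 2, and 2, against 5.84%, 7.11%, and 5.15% of all genes. It called 11 between 1.4 Gy and the other doses, 2 between the high and low doses, and 4 other carriers. With no fold limit the counts at 0.5, 1.4, 11.2, and 32.4 Gy were 7, 6, 7, and 3, with 13 between 1.4 Gy and the other doses, 7 between the high and low doses, and 5 other carriers. The share of all genes was not counted for the F tests and contrasts between doses under these alternatives, nor with no fold limit. It was also not counted beside the numbers of other carriers here, with 1 array left out, or with the replicate block. Nothing about the members is read from those counts. The 20 and 28 members passing the F test were more than the 17 detected members, so that undetected probes were among them. The undetected probe of Slc38a2 reversed its sign at 0.05 and 0.5 Gy (−0.01 at both). The cause of these changes was not tested beyond the construction of each alternative. With 1 array left out, the count was 0 to 1 at 32.4 Gy, where Slc1a3 was called without array 1 of 32.4 Gy (−0.59) or array 2 of 0 Gy (−0.64), 3 to 4 at 1.4 Gy, and 10 to 13 in the F test, and none of the 10 calls was lost. Members detected numbered 22 at a detection p under 0.05, 22 with 2 of 3 arrays, and 19 with the detection p-values of the normalized table, an alternative chosen after seeing the data. For these detection rules the share of all genes was not counted. The labels do not say what the replicate numbers share, so that the numbers were not taken to pair the arrays. The deviations of each array from its group mean were correlated between groups, over probes detected in at least 1 group. The 45 correlations of deviations between arrays of the same number ran from −0.042 to 0.294, with a median of 0.090. The median for different numbers was −0.046. The deviations within a group sum to 0, so that this value is tied to that for the same number and is no separate comparison. Of the 18 arrays, 17 lay closest to their own number. These values are a hint from the data and not the design. With the replicate block, the numbers of members called were 3, 4, 3, 0, and 0 from the lowest to the highest dose, and no call changed.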
